A study of Homo sapiens with 12 samples.

Results

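PAX5 binding was examined at the loci of 10 transcription factor genes of B cells: PAX5 itself, EBF1, IRF8, IRF4, SPIB, POU2AF1, IKZF1, IKZF3, BACH2 and MEF2C. Each locus is a fixed window on hg19 around the gene, from 50 kb (SPIB) to 460 kb (EBF1) long and 2.08 Mb in all. The windows are chr9:36800000-37080000 (PAX5), chr5:158100000-158560000 (EBF1), chr16:85900000-86020000 (IRF8), chr6:370000-450000 (IRF4) and chr19:50900000-50950000 (SPIB). The others are chr11:111200000-111280000 (POU2AF1), chr7:50320000-50500000 (IKZF1), chr17:37890000-38050000 (IKZF3), chr6:90610000-91040000 (BACH2) and chr5:87990000-88230000 (MEF2C). Every peak of any list that overlapped a window was taken. This gave 99 of the 25380 peaks in the 6 lists, and 50 of the 14465 regions that remain when overlapping or touching peaks of all lists are merged.

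The peaks come from chromatin immunoprecipitation and sequencing with the PAX5 antibody C-20 in 3 human cell lines, with 2 immunoprecipitated libraries each. Raji and Namalwa, both of Burkitt lymphoma (a mature B-cell tumour), received no treatment and are called the B-cell lines. L428-PAX5 derives from the Hodgkin lymphoma line L428 and carries an inducible PAX5, which was switched on with mifepristone 48 h before fixation. All cells were fixed with 1% formaldehyde for 20 min, and no L428 library without induction is among the samples. Input libraries were not analysed here, and the labels do not state whether replicate libraries stem from separate cultures. The lists held between 2107 and 6241 peaks, and their read depth is unknown. A missing peak therefore means only that none was listed.

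The 10 genes encode much of the regulatory core of the B lineage. EBF1 opens chromatin in early progenitors and, with Ikaros (IKZF1), comes before PAX5, which then commits cells to the lineage. The products of the other genes are Aiolos (IKZF3), the ETS factor Spi-B (SPIB), the octamer coactivator OBF1 (POU2AF1), the interferon regulatory factors IRF8 and IRF4, the repressor BACH2 and the MADS-box factor MEF2C. Tumour cells of classical Hodgkin lymphoma have lost much of this programme, although they still hold low levels of PAX5.

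At these loci the B-cell lines and L428-PAX5 had their PAX5 peaks at different places, with 1 exception. Of the 50 regions, 34 had peaks of B-cell lines only (68%, against 52.4% of all merged regions), 15 had peaks of L428-PAX5 only (30%, against 39.7%) and 1, at IKZF3, had both. Genome-wide 7.9% had both, so the 2.0% at the loci are not set apart by a count this small. Raji and Namalwa, which have more lists than L428-PAX5, had a peak at all 10 loci between them. L428-PAX5 had one at 7 loci and none in the windows of EBF1, POU2AF1 and MEF2C. By library, Raji 1 and Raji 2 had a peak at 8 and 9 loci, and Namalwa 1 and Namalwa 2 at 9 and 7. L428-PAX5 1 had a peak at 7 loci and L428-PAX5 2 at 4.

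**Figure D1:**
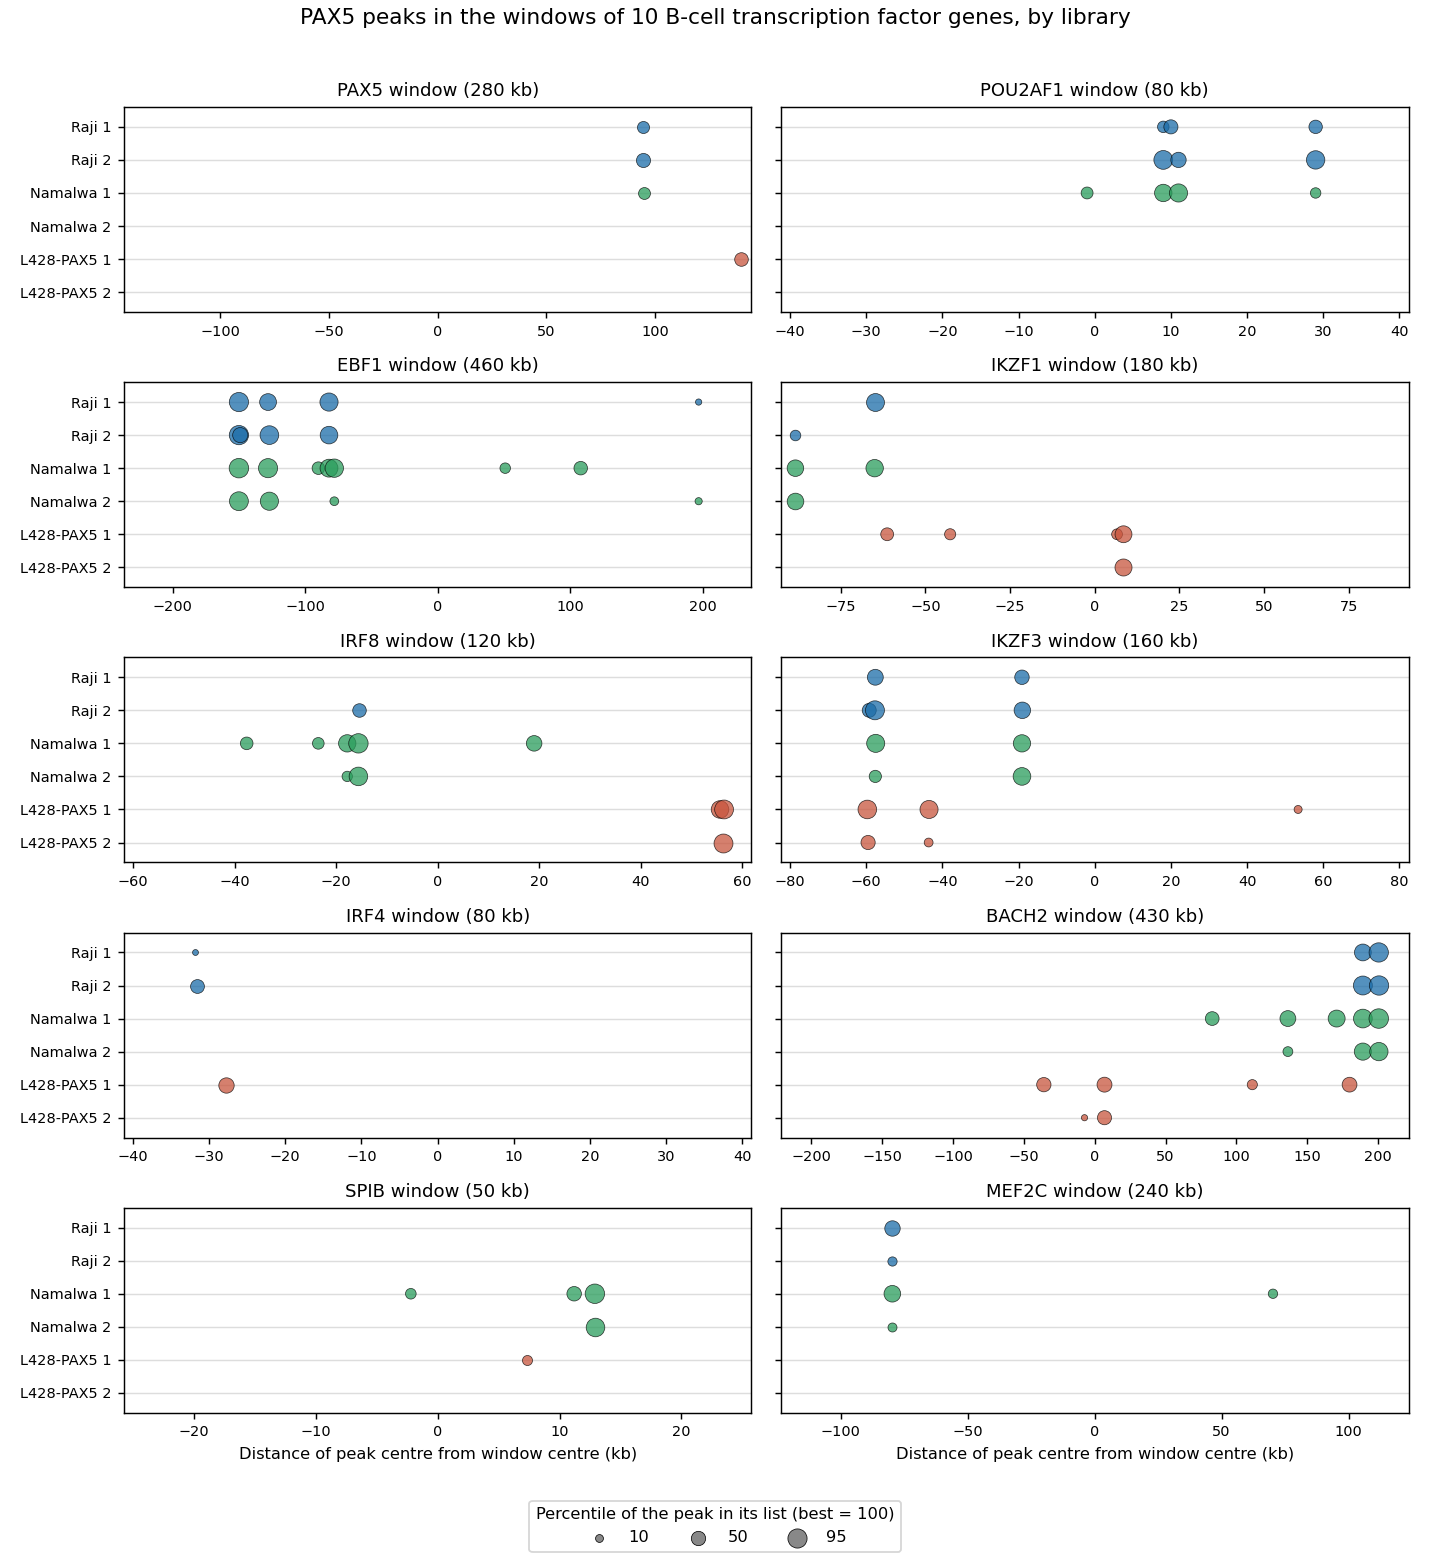
Position of every PAX5 peak in the 10 windows, with the distance of the peak centre from the window centre in kb on the x axis, 1 row per library, and point size for the percentile of the peak in its list. At BACH2, IKZF1 and IRF8 the red points of L428-PAX5 lie at other positions than the blue (Raji) and green (Namalwa) points. At IKZF3 a Raji 2 point and an L428-PAX5 2 point stand for overlapping peaks. The EBF1, POU2AF1 and MEF2C windows hold no red point.

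The windows were denser in peaks than the chromosomes as a whole in all 6 libraries, and more so in the B-cell lines. Raji 1 and Raji 2 had 15 and 17 peaks in the windows, Namalwa 1 and Namalwa 2 had 31 and 14, and L428-PAX5 1 and L428-PAX5 2 had 16 and 6. As a share of the list this was 0.573% and 0.343% for the Raji libraries, 0.497% and 0.664% for Namalwa, and 0.258% and 0.185% for L428-PAX5. The 4 B-cell-line libraries thus lay above both L428-PAX5 libraries, but the exact 95% intervals of the nearest ones, 0.200 to 0.548% in Raji 2 and 0.148 to 0.419% in L428-PAX5 1, overlapped. The number of peaks per Mb of window was 8.51, 5.09, 7.38 and 9.87 times that over all chromosomes in Raji 1, Raji 2, Namalwa 1 and Namalwa 2, and 3.83 and 2.74 times in L428-PAX5 1 and L428-PAX5 2.

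When every list was shortened to its best 2107 peaks, as many as Namalwa 2 had, Raji 1 and Raji 2 kept 13 and 10 in the windows, Namalwa 1 and Namalwa 2 kept 17 and 14, and L428-PAX5 1 and L428-PAX5 2 kept 5 and 4. The 4 B-cell-line libraries again lay above both L428-PAX5 libraries. With 2 libraries against 4 an exact permutation test has 15 choices and a smallest p of 0.0667, and no test over libraries was run.

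As a comparison, 12 other loci of lymphoid transcription factors (TCF3, BCL11A, ETS1, SPI1, FOXO1, FOXP1, POU2F2, RUNX3, RUNX1, LEF1, ID3 and IKZF2; 1.92 Mb in all) were counted in the same way. They held 72 peaks in 33 regions. Their density was 6.76 and 6.49 times that of all chromosomes for the Raji libraries, 4.90 and 5.35 times for Namalwa, and 2.08 and 3.46 times for L428-PAX5. Over all libraries the ranges of the 10 loci (2.74 to 9.87) and of these 12 (2.08 to 6.76) overlapped. Library by library, the 10 loci were denser in Raji 1, both Namalwa libraries and L428-PAX5 1. They were less dense in Raji 2 and L428-PAX5 2. At these 12 loci, too, every B-cell-line library lay above both L428-PAX5 libraries, so this is not particular to the 10.

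**Figure D2:**
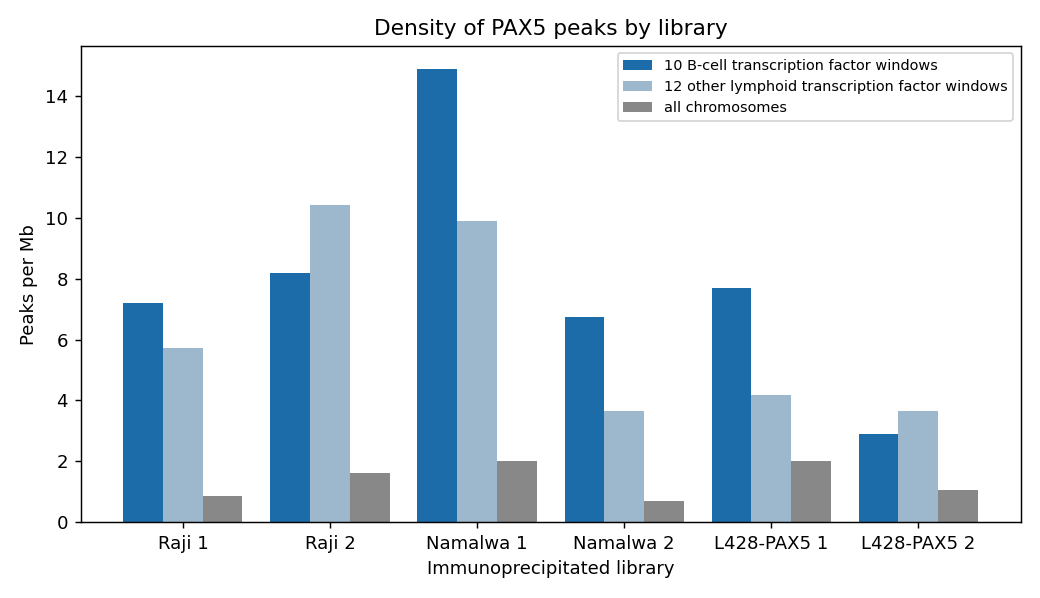
Peaks per Mb (y axis) in each of the 6 libraries (x axis), with 1 bar for the 10 windows, 1 for the 12 comparison windows and 1 for all chromosomes up to the last listed peak. The windows reach 14.9 peaks per Mb in Namalwa 1 against 2.02 over all chromosomes, and 2.88 against 1.05 in L428-PAX5 2.

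A region counts as reproducible in a cell line if each of its replicates has a peak in it. This held for 24 of the 50 regions (48%, against 36.7% of all merged regions). Of these, 13 were Raji regions (26% of the 50, against 15.1% of all), 13 Namalwa regions (26%, against 13% of all) and 5 L428-PAX5 regions, with some in more than 1 line. The regions found in a single library numbered 24 (48% against 55.1% over all regions), of which 12 came from Namalwa 1 and 10 from L428-PAX5 1, the longest lists.

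Reproducible in both B-cell lines were 7 regions, 2 each at EBF1, IKZF3 and BACH2 and 1 at MEF2C. That is 14% of the regions at the loci against 6.68% genome-wide, and the comparison loci had 4 such regions among 33 (12.1%). None of the 7 had a peak in L428-PAX5 (regions of this kind make up 4.8% of all). By a rough rule, not the exact interval given for other shares, a count of 0 allows a share of up to 42.9% (3 counts of 7). Genome-wide 28.1% of the sites common to Raji and Namalwa had an L428-PAX5 peak, which lies within that limit. Of the 4 such regions at the comparison loci, 2 had an L428-PAX5 peak, at TCF3 and ETS1. With Namalwa 2, the shortest list, left out, a Namalwa region needed a peak of Namalwa 1 only. Under this looser rule the regions of both B-cell lines numbered 12. None had an L428-PAX5 peak, which adds nothing, as the only region shared with L428-PAX5 had no Namalwa peak.

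The lines were also compared pair by pair. Of the 13 Raji regions, 12 had a Namalwa peak (92.3%, exact 95% interval 64.0 to 99.8%, against 75.8% over all Raji regions) and 0 an L428-PAX5 peak (against 22.6%). Of the 13 Namalwa regions, 9 had a Raji peak (69.2%, 38.6 to 90.9%, against 70.9%) and 0 an L428-PAX5 peak (against 19.3%). For each of these lines the exact interval of the share with an L428-PAX5 peak ran from 0 to 24.7%. The intervals cover counting error only.

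L428-PAX5 had 5 reproducible regions at the loci, 2 at IKZF3 and 1 each at IRF8, IKZF1 and BACH2. This is 10% of the regions, against 17.2% genome-wide. A peak of either L428-PAX5 library was present in 16 regions (32%, against 47.6%). Leaving out L428-PAX5 2, the shorter list, also gave 16, but not the same 16. The BACH2 region chr6:90817660-90817973, found in L428-PAX5 2 only, was then lost. The IRF8 region chr16:86015291-86016674 split into 2, since only the L428-PAX5 2 peak had joined its L428-PAX5 1 peaks. Of the 5, 4 had no B-cell-line peak (such regions make up 14.1% of all), and 1 met a peak of Raji 2 (20%, against 17.9% of all reproducible L428-PAX5 regions).

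**Figure D3:**
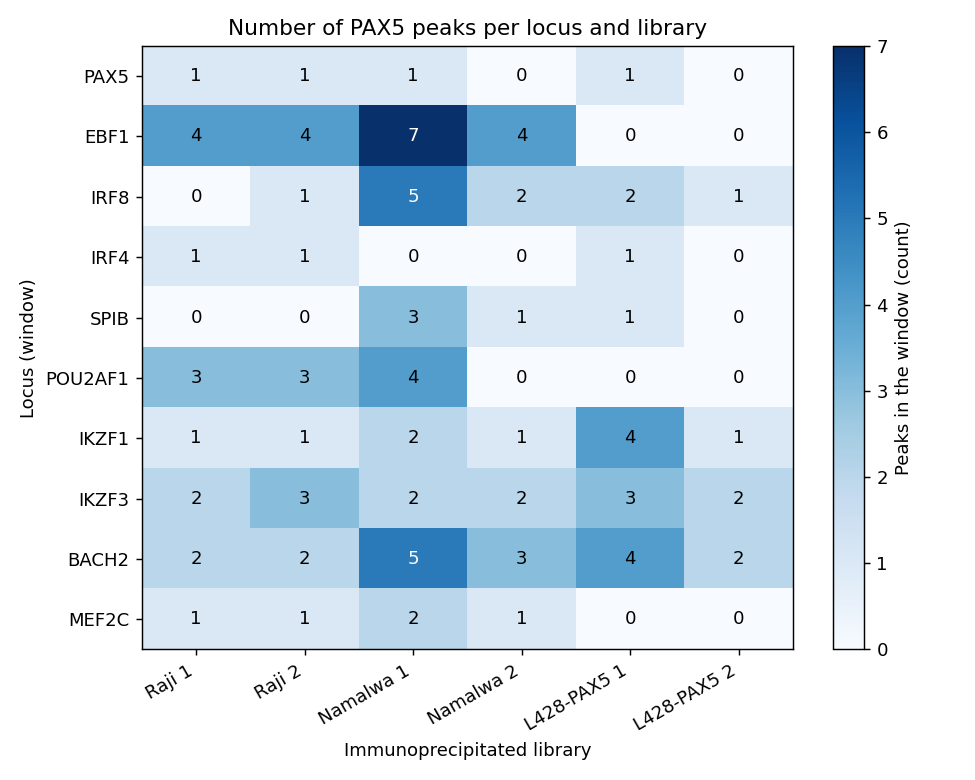
Number of peaks in each window (rows) in each library (columns), with darker cells for higher counts. EBF1 has 4 to 7 peaks in each B-cell-line library and 0 in both L428-PAX5 libraries, while IKZF1 has 4 peaks in L428-PAX5 1, 1 in L428-PAX5 2 and 1 or 2 in each B-cell-line library.

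The strength of a peak is given as the −log10 of the authors' p-value and as its rank in its list, since p-values move with the depth of a library and only ranks can be set side by side. A percentile of 100 is the best peak of a list. Start and end are as the lists give them, on hg19. Exons, introns and start sites are not given, because the annotation used here belongs to another build.

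The window of the PAX5 gene itself held 4 listed peaks in 2 regions. With 0.714 regions per 100 kb it had the fewest per length of the 10 loci. One region, chr9:37033897-37035071, had a −log10 p of 6.43 in Raji 1 (rank 1741 of 2619), 8.18 in Raji 2 (rank 2551 of 4960) and 6.87 in Namalwa 1 (rank 4218 of 6241), and no peak in Namalwa 2 or L428-PAX5. All 3 peaks thus lay in the weaker part of their lists. They were also spread out: their centres lay up to 643 bp apart, and the Raji 2 and Namalwa 1 peaks were joined only through that of Raji 1. In L428-PAX5 1 a peak of 6.94 (rank 3444 of 6201) lay at chr9:37079232-37079586, at the window's upper edge and 44.2 kb from the other region, and L428-PAX5 2 had none. No region of the window was found in both L428-PAX5 libraries, but 1 lay 33.9 kb below it, at chr9:36765211-36766122, with 11.4 (rank 1256 of 6201) and 9.68 (rank 780 of 3252) and no B-cell-line peak.

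EBF1, the longest window, had the highest raw count of peaks, 19 in 9 regions, all of them from the B-cell lines. Per length it had 1.96 regions per 100 kb, against 0.714 (PAX5) to 8 (SPIB) at the other loci. Its strongest region, chr5:158179254-158179886, had a −log10 p of 21.4 in Raji 1 (rank 114 of 2619), 30.0 in Raji 2 (rank 183 of 4960), 51.9 in Namalwa 1 (rank 72 of 6241) and 16.9 in Namalwa 2 (rank 166 of 2107). All 4 libraries placed it in the best 10% of their list, with centres within 72.5 bp of each other. By mean percentile it was number 72 among the 966 regions with reproducible peaks in Raji as well as Namalwa. A second region of all 4 libraries lay at chr5:158202075-158202778, with 9.97 and 20.4 in Raji and 30.6 and 13.4 in Namalwa. The region chr5:158247776-158248351 had 13.4, 14.1 and 16.5 in Raji 1, Raji 2 and Namalwa 1 and no peak in Namalwa 2. The region next to it, chr5:158251808-158252692, had 19.5 and 5.51 in Namalwa and none in Raji. EBF1 thus had B-cell-line sites of high and of low rank in a window where L428-PAX5 had none. The other 5 regions had values of 5.12 to 9.27, from 1 library each except 1 with weak peaks of Raji 1 and Namalwa 2.

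Within its window IKZF1 had different sites in each kind of line (genome-wide only 7.9% of regions had peaks of both kinds). Towards its lower edge, chr7:50321089-50322044 had a −log10 p of 11.9 in Namalwa 1 (rank 1928 of 6241), 9.99 in Namalwa 2 (rank 631 of 2107) and 6.20 in Raji 2 (rank 3767 of 4960). A region at chr7:50344562-50345348 was found in Raji 1 (12.5, rank 464 of 2619) and Namalwa 1 (14.3, rank 1411 of 6241), and thus in 1 library of each line. In L428-PAX5 both libraries had a peak at chr7:50418217-50418733, with 9.87 (rank 1710 of 6201) and 9.31 (rank 853 of 3252) and percentiles of 72.4 and 73.8. It lay 72.9 kb from the nearest region with a B-cell-line peak. L428-PAX5 1 alone had 3 further peaks, between 5.92 and 6.64 and in the weaker part of its list. With them IKZF1 had 4 regions of L428-PAX5 against 2 of the B-cell lines, and without L428-PAX5 1 it had 1 against 2. Just outside, 4.23 kb below the window, a region of both B-cell lines also had a weak L428-PAX5 1 peak (5.72).

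IKZF3, which encodes a close relative of Ikaros, held 2 regions of all 4 B-cell-line libraries and 2 of both L428-PAX5 libraries, side by side. The B-cell-line region chr17:37911956-37912840 had a −log10 p of 8.82 in Raji 1, 24.5 in Raji 2 (rank 335 of 4960), 17.6 in Namalwa 1 and 6.42 in Namalwa 2. Only 958 bp from it lay chr17:37910071-37910998, with 15.4 in L428-PAX5 1 (rank 651 of 6201) and 6.98 in L428-PAX5 2 (rank 1657 of 3252). In the latter a weak Raji 2 peak (8.04, rank 2608 of 4960) met the peak of L428-PAX5 2 but not that of L428-PAX5 1. When merging needed a reciprocal overlap of 50%, or centres within 200 bp, the peaks of the loci formed 56 or 55 regions, and 0 of these held a B-cell line together with L428-PAX5.

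The second B-cell-line region of IKZF3, chr17:37950487-37951481, had a peak in all 4 libraries, with values of 7.63 and 11.2 in Raji and 13.9 and 11.9 in Namalwa. The second L428-PAX5 region, chr17:37926140-37926821, lay between them, with 12.6 in L428-PAX5 1 (rank 992 of 6201) and 5.43 in L428-PAX5 2 (rank 2779 of 3252). It was 13.3 kb from the nearest region with a B-cell-line peak. L428-PAX5 1 had 1 more peak in the window, at 5.35.

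BACH2, a repressor that holds back plasma cell differentiation, carried the best peak of the 10 loci in 3 lists. At chr6:91025034-91025998 the −log10 p was 23.3 in Raji 1 (rank 87 of 2619), 33.2 in Raji 2 (rank 138 of 4960), 52.1 in Namalwa 1 (rank 69 of 6241) and 13.8 in Namalwa 2 (rank 289 of 2107). Among the 966 regions it was number 87. A second region of all 4 libraries, 10.5 kb below it at chr6:91013965-91014517, had 10.0 and 23.8 in Raji and 23.4 and 10.9 in Namalwa, with centres within 32.5 bp. Namalwa had a further reproducible region at chr6:90961073-90961589, with 10.5 and 5.76, and Namalwa 1 had 2 more peaks of 8.11 and 12.9.

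L428-PAX5 had 5 regions in the BACH2 window, as many as the B-cell lines, and shared none with them. The 1 found in both libraries, chr6:90831612-90832129, had a −log10 p of 7.75 (rank 2787 of 6201) and 6.92 (rank 1683 of 3252), near the middle of both lists. It lay 75.5 kb from the nearest B-cell-line region. The other 4 were found in 1 library each and had values of 5.11 to 7.66.

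At SPIB and IRF8 the reproducible B-cell-line regions were those of Namalwa. The SPIB region chr19:50937661-50938168 had a −log10 p of 48.0 in Namalwa 1 (rank 92 of 6241) and 15.1 in Namalwa 2 (rank 228 of 2107), and neither Raji nor L428-PAX5 had a peak there. Raji had no peak at all in the SPIB window, which otherwise held 2 weaker peaks of Namalwa 1 and 1 of L428-PAX5 1 (5.76). At IRF8, chr16:85943898-85944861 had 41.6 in Namalwa 1 (rank 138 of 6241), 15.0 in Namalwa 2 (rank 232 of 2107) and 7.73 in Raji 2 (rank 2770 of 4960). A Namalwa region 1389 bp below it, chr16:85941975-85942509, had 14.1 and 5.85. The other 3 IRF8 regions were single peaks of Namalwa 1 with values of 6.69 to 9.97.

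The strongest L428-PAX5 site of the 10 loci was also in the IRF8 window, at its upper edge. At chr16:86015291-86016674 L428-PAX5 1 had 2 peaks of 11.2 and 16.7 (rank 506 of 6201 for the better one), and a single wide peak of L428-PAX5 2 (15.6, rank 233 of 3252) spanned the gap between them. Percentiles were 91.9 and 92.9. It was number 272 of the 2487 reproducible L428-PAX5 regions and lay 36.0 kb from the nearest region with a B-cell-line peak. In RefSeq the next protein-coding gene above IRF8 is FOXF1.

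At POU2AF1 and IRF4 the reproducible regions were those of Raji. POU2AF1 had 3 regions in both Raji libraries and in Namalwa 1. At chr11:111248983-111249624 the −log10 p was 6.27 in Raji 1, 21.8 in Raji 2 (rank 430 of 4960) and 14.4 in Namalwa 1 (rank 1402 of 6241). At chr11:111250017-111251111, 393 bp further on, it was 7.46, 9.44 and 18.2, and at chr11:111268872-111269528 it was 7.03, 18.0 and 6.23. Namalwa 2, the shortest list, had no peak in the window, so Namalwa did not count as reproducible at any of the 3. One weak peak of Namalwa 1 (6.87) made up the remaining region.

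IRF4, which drives plasma cell differentiation and is abundant in Hodgkin cells, had peaks of low or middle rank only. The region chr6:377795-378604 had 5.11 in Raji 1 (rank 2556 of 2619) and 7.93 in Raji 2 (rank 2668 of 4960). A single L428-PAX5 1 peak of 8.11 (rank 2559 of 6201) lay 3.43 kb from it, and Namalwa had none in the window. MEF2C, a factor of B-cell receptor responses, had 1 narrow region, chr5:88030029-88030475, in all 4 B-cell-line libraries. Its values were 8.40 and 5.76 in Raji and 12.03 and 5.55 in Namalwa, at percentiles of 59.3, 16.7, 70.0 and 15.6. Among the 966 regions it was number 910. A second MEF2C region was a single peak of Namalwa 1 (5.85).

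**Figure D4:**
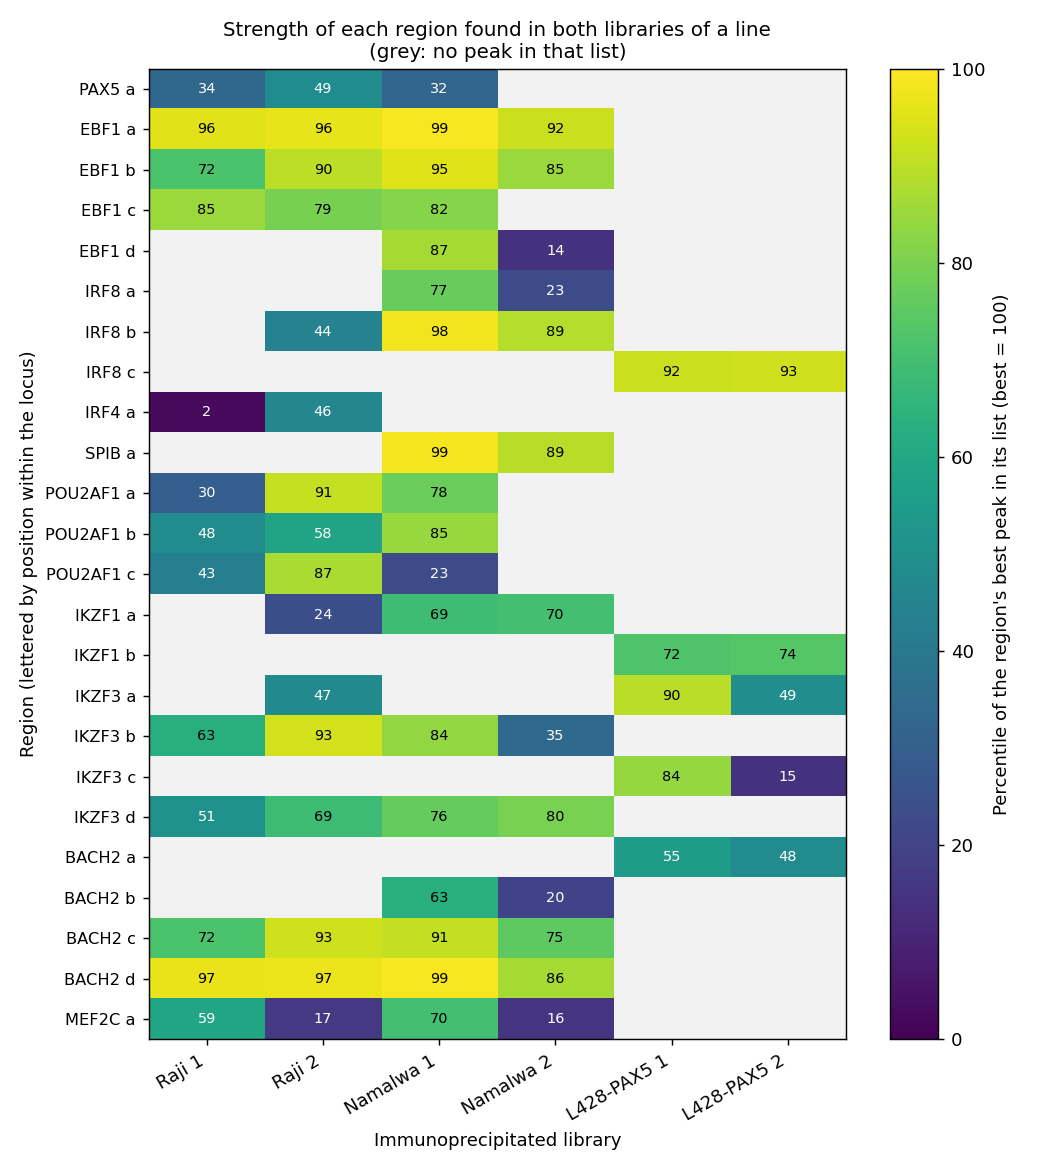
Percentile, in its list, of the best peak of each of the 24 reproducible regions (rows, lettered by position within the locus) in the 6 libraries (columns), with grey where a list has no peak. The L428-PAX5 columns are filled in 5 rows, of which 1 also has a Raji 2 value, and the rows of EBF1 a and BACH2 d reach 86.3 or more in all 4 B-cell-line libraries.

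Ranks of the member peaks were spread over the lists. The median percentile was 59.3 and 68.6 for Raji 1 and Raji 2, 70.0 and 72.6 for the Namalwa libraries, and 51.9 and 48.7 for those of L428-PAX5, where 50 is the middle of any list. The best 10% of a list held 2 of 15 peaks in Raji 1, 6 of 17 in Raji 2, 6 of 31 in Namalwa 1, 1 of 14 in Namalwa 2, 1 of 16 in L428-PAX5 1 and 1 of 6 in L428-PAX5 2, against 10% by construction.

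The sites of L428-PAX5 lay at varied distances from those of the B-cell lines. Of the 15 regions with L428-PAX5 peaks only, 4 were within 10 kb of a region with a B-cell-line peak and 9 within 50 kb, against 12.3% and 36.7% of all regions of this kind. Of the 4 found in both L428-PAX5 libraries, 0 were within 10 kb and 2 within 50 kb, against 11.7% and 34.9% of all such regions. The windows are themselves dense in B-cell-line peaks, and whether distance adds anything to this was not tested.

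Windows set by hand can miss sites, so each was widened by 50 kb on both sides. This added 24 regions, among them 3 of both B-cell lines. The strongest was 7.63 kb above the POU2AF1 window at chr11:111287631-111288836, with a −log10 p of 29.2 and 39.2 in Raji (ranks 34 of 2619 and 76 of 4960) and 38.4 and 19.9 in Namalwa (ranks 178 of 6241 and 113 of 2107), but nothing in L428-PAX5. The best BACH2 site likewise lay outside, 45.2 kb above the window at chr6:91085162-91086172, with 21.1 and 35.1 in Raji and 68.7 and 21.5 in Namalwa, and no L428-PAX5 peak. These were numbers 38 and 44 of the 966 regions.

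The third, 4.23 kb below the IKZF1 window at chr7:50315028-50315771, was found in all 4 B-cell-line libraries and, weakly, in L428-PAX5 1 (5.72). Below the IRF4 window, chr6:364678-365382 had peaks in both Namalwa libraries (30.5 and 11.6), in Raji 2 (5.15) and in both L428-PAX5 libraries (9.72 and 10.1). Below the MEF2C window, which itself held no L428-PAX5 peak, lay a peak of L428-PAX5 1 at 18.7 kb (12.3, rank 1044 of 6201) and a weaker one of L428-PAX5 2 at 32.8 kb (6.16, rank 2192 of 3252). The wider EBF1 and POU2AF1 windows still held none.

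With the wider windows 1 of 10 regions of both B-cell lines (10%) had an L428-PAX5 peak, against 28.1% genome-wide. Of the 74 regions in the wider windows, 11 were reproducible in L428-PAX5, in place of 5 of 50 (17.2% genome-wide). Further below IRF4 lay 3 of these 11, between chr6:340967 and chr6:344169. Their values reached 27.7 in L428-PAX5 1 (rank 127 of 6201) and 12.8 in L428-PAX5 2, with no peak of a B-cell line. In RefSeq the next protein-coding gene below IRF4 is DUSP22.

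Promoter sequences of the same genes were read from a table of RefSeq promoters (GRCh38.p14), in which 8 of the 10 were matched, with 17 start sites in all. These are on another build than the peaks, so whether a peak covers them was not examined. The sequences of PAX5, the mapped factor's own gene, and of BACH2, which held the best peak of the loci in 3 of the 6 lists, are shown for the 250 bases before the start, minus strand, 5′ to 3′, at chr9:37034269-37034518 and chr6:90296844-90297093. Capitals mark GTGAC, the end of the core GCGTGAC of the known PAX5 motif, on either strand.
PAX5: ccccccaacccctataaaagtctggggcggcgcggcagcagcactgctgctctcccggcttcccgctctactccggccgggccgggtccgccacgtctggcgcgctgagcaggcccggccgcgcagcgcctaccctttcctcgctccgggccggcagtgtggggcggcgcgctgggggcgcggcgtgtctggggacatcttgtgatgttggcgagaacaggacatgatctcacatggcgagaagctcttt
BACH2: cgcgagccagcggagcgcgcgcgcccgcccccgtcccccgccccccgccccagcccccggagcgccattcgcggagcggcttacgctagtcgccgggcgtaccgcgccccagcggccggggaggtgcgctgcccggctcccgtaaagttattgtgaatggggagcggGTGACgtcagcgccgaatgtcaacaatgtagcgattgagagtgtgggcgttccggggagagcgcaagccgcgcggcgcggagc
The letters GCGTGAC were in none of the 17 promoters and in 2.20% of the 35116 RefSeq promoters of this length, and the shorter GTGAC was in 5 of the 17 and in 37.3% of all. A match is only a run of letters and no match says nothing about the factor.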

How the data were processed

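Each immunoprecipitated library has 1 list, deposited by the authors, of peak positions with a p-value for every peak (the unit was inferred from the values). Peaks were therefore called in each library by itself. Per the submitters' processing notes, CASAVA 1.3 and 1.8 and BWA 0.5.9-r16 were used, on hg19, and peaks are named after PeakRanger, a peak caller. Not given in the sources used here are its settings, the control it used, any adjustment of the p-value and whether starts count from 0 or 1.

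Groups came from the sample titles. Peaks that shared at least 1 bp or touched were merged, also in chains. All regions reproducible in a line were named, at most 6 per locus. Percentiles and ranks were taken within a list, and gaps run from edge to edge. The length of all chromosomes, 3089.6 Mb, is the sum of the last listed peak ends. The members, windows and lists were chosen with earlier results of these data known, and the 12 comparison windows are rounded positions from general knowledge, unchecked against an hg19 annotation. No test was run. The merging was checked on simulated lists, whose sites lay too far apart for neighbours to be joined. Joining of neighbouring sites through chains was thus not part of the check. Computations used Python 3.11.15 with pandas 2.3.3, numpy 2.4.6 and scipy 1.17.1, and figures matplotlib 3.10.9.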

Additional observations from a re-analysis of the deposited data

How the results depend on the processing

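No paired analysis was possible because the results are counts and ranks that come from no test. Of 132 values recomputed, 32 moved by more than 1.5 times. The share of regions of both B-cell lines with an L428-PAX5 peak was 0% in every planned setting except the wider windows (10%). The other settings could not raise it, because the only region of both kinds in the windows had no Namalwa peak. Their values of 0% thus say nothing about stability. Genome-wide this share was 28.1%. When merging needed a 50% reciprocal overlap, or centres at most 200 bp apart, 0 regions had peaks of a B-cell line and of L428-PAX5. In the better 50% of each list, where fewer peaks enter by construction, the windows held 9, 11, 20, 8, 8 and 2 peaks (Raji 1 to L428-PAX5 2) in 29 regions, of which 7 were Raji, 8 Namalwa and 2 L428-PAX5 regions (2 with no B-cell-line peak), and 0 had both kinds. In lists of equal length Raji 2 had 10 peaks, Namalwa 1 had 17 and L428-PAX5 1 had 5, in 26 regions, with 3 reproducible in L428-PAX5 and 0 of both kinds. In wider windows L428-PAX5 had 28 and 14 peaks. Of the 74 regions there, 11 were reproducible in L428-PAX5 (17.2% of all merged regions are of this kind), 9 of these without a B-cell-line peak. In the wider windows 3 regions had both kinds. With 1 library left out there were 7 to 12 regions of both B-cell lines, 7 to 12 of these without an L428-PAX5 peak and 13 to 31 of Namalwa (highest for all 3 without Namalwa replicate 2), and 5 to 16 of L428-PAX5 and 4 to 16 of these without a B-cell-line peak (highest without L428-PAX5 replicate 2). Regions of both kinds then numbered 0 to 1, with 0 without Raji replicate 2 or L428-PAX5 replicate 2. A line with 1 library left out counted by its remaining library alone, a looser rule than a peak in each replicate. Peaks of unknown depth limit all counts of missing sites.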

Other observations

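The PAX5 window ends at chr9:37080000, and the stretch above it was looked at after the values were seen, since few peaks lay in the window. Over the next 400 kb there were 38 peaks in 19 regions: 8 in Raji 1, 12 in Raji 2, 10 in Namalwa 1, 3 in Namalwa 2, 4 in L428-PAX5 1 and 1 in L428-PAX5 2. Of the 19 regions, 15 had peaks of B-cell lines only (52.4% of all merged regions are of this kind). The PAX5 window, 280 kb long, had 1 such region of 2. In RefSeq the next protein-coding gene above PAX5 is ZCCHC7, whose introns are known to hold enhancers of PAX5. Whether any region of the stretch lies in ZCCHC7 or acts on PAX5 was not examined.

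Within this stretch 3 regions lay close together. The first, chr9:37369331-37370063, had a −log10 p of 10.9 and 16.3 in Raji and 11.5 and 5.58 in Namalwa. The second, chr9:37370809-37371645, had 8.26, 11.3 and 16.4 in Raji 1, Raji 2 and Namalwa 1, and the third, chr9:37374900-37375565, had 14.0, 9.50 and 13.4 in the same libraries. None of them had an L428-PAX5 peak.

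A region 329 kb above the window, chr9:37408846-37409779, was found in all 6 libraries and was among the best of several lists. Its −log10 p was 24.8 in Raji 1 (rank 75 of 2619), 37.9 in Raji 2 (rank 90 of 4960), 33.0 in Namalwa 1 (rank 257 of 6241), 9.88 in Namalwa 2 (rank 655 of 2107), 41.5 in L428-PAX5 1 (rank 37 of 6201) and 30.0 in L428-PAX5 2 (rank 47 of 3252). The L428-PAX5 ranks here were better than any in the 10 windows, where the best were 506 and 233. No test was made, because the stretch was picked after its values were seen.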
